A study of Homo sapiens with 4 samples.

Results

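TYMS, DUT, RRM1, RRM2, TK1, DCK and DTYMK are 7 genes, of 37468 features counted, whose enzymes make or recover the deoxynucleotides from which DNA is built. They were taken by symbol and all 7 were present in each library. The cells were MSTO-211H, an established human pleural mesothelioma line labelled as wild type and kept in serum-free suspension culture with EGF, bFGF, heparin and a neuronal supplement. The design text calls the culture mesothelioma-initiating cells. There were 4 groups of 1 single-cell library each. Drug_Radiation cells received 10 µM QTP and, on the following day, 4 Gy. Drug cells received 10 µM QTP alone, Radiation cells received 4 Gy alone, and Control cells received neither. All were collected 48 h after the irradiation. QTP is not spelled out in the labels, and the series title places it under dopamine receptor inhibition. The treatment text is the same for every library, so the groups rest on the group label, and the cells were pooled before capture.

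Deoxynucleotides reach DNA by a synthesis route and a salvage route. Ribonucleotide reductase, built from the subunits RRM1 and RRM2, converts ribonucleotides into deoxynucleotides. DUT turns dUTP into dUMP, which keeps uracil out of DNA, TYMS methylates dUMP to dTMP with a folate donor, and DTYMK phosphorylates dTMP further. TK1 and DCK recover deoxynucleosides by phosphorylating them in the cytosol. RRM2, TK1 and TYMS are known for high levels in S phase, and TYMS is the target of 5-fluorouracil and of pemetrexed, a drug used in mesothelioma.

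The cells kept numbered 6990 in Drug_Radiation, 3802 in Drug, 2425 in Radiation and 3183 in Control, and no barcode was shared between any pair of libraries. The median number of UMIs (unique molecular identifiers, each standing for one captured RNA molecule) per cell was 18024.5 in Drug_Radiation, 20405 in Drug, 5299 in Radiation and 2318 in Control. QTP, sequencing depth and library therefore cannot be told apart by the design. Each group is a single library, so replicate error is unknown and no test was made. Among the markers of the line, KRT8, KRT18 and VIM were abundant (1786 to 4661 CPM, UMIs per 1000000 nuclear-encoded UMIs), MSLN was between 8.27 and 14.0 CPM and HP was at 0 UMIs in every library. Of all 12 markers listed for the line, 5 reached 5 CPM in each library. The number of them at 0 UMIs was 1 in Drug_Radiation, 1 in Drug, 5 in Radiation and 2 in Control. Of 5 leukocyte markers, with summed levels of 39.5 CPM in Drug_Radiation, 40.1 in Drug, 41.7 in Radiation and 16.7 in Control, CD68 gave nearly all, and PTPRC stayed between 0.169 and 0.335 CPM. The summed endothelial, fibroblast and other epithelial markers reached at most 1.10, 19.7 and 3.02 CPM in any library, and 4 neuronal and glial markers, mostly MBP, had 65.9 CPM in Drug_Radiation, 76.1 in Drug, 58.5 in Radiation and 50.8 in Control. The part of these markers in the differences below was not tested.

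By GENCODE 29 on GRCh38, RRM1 (ENSG00000167325) lies at chr11:4094707-4138876 on the plus strand and RRM2 (ENSG00000171848) at chr2:10120698-10131419 on the plus strand. TYMS (ENSG00000176890) lies at chr18:657604-673578, plus strand, DUT (ENSG00000128951) at chr15:48331011-48343373, plus strand, and DTYMK (ENSG00000168393) at chr2:241675742-241686991, minus strand. TK1 (ENSG00000167900) lies at chr17:78174075-78187233, minus strand, and DCK (ENSG00000156136) at chr4:70992538-71030914, plus strand. Of the exon bases of TYMS, 39.1% are shared with ENOSF1 on the opposite strand and 7.41% with the divergent noncoding gene TYMSOS. The strand counted is not given in the sources used here, so reads of TYMS and ENOSF1 in the shared exons cannot be told apart. DUT shares 14.5% of its exon bases with an antisense gene that had at most 28 UMIs in a library, and DCK shares 6.17% with MOB1B on the same strand. RRM2 shares 20.2% with the protein-coding gene AC007240.1 on the same strand, which is not among the features of the files. GENCODE 29 also names 13 processed copies of these genes, 8 of DUT, 3 of RRM2 and 2 of TYMS, none of which is a feature of the files. How reads that also match such copies were counted is not given, so the levels of DUT, RRM2 and TYMS carry that uncertainty.

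The stretches below come from the windows of 250 bases before the transcription starts that RefSeq lists on GRCh38.p14, and they are shown because their genes carry the contrasts described here. TYMS had the radiation ratio furthest from the others, DUT was lower after radiation in both arms, and RRM2 and TK1 were the pair with the most similar pattern. Capitals mark matches to the E2F words TTTGGCGC, TTTCCCGC, TTTCGCGC or TTTGCCGC, to CCAAT, or to TTTGAA (the core of the cell cycle homology region), searched on both strands, with no overlap between matches. A word read on the opposite strand appears as its reverse complement, so GCGGGAAA is an E2F word, ATTGG is a CCAAT and TTCAAA is a TTTGAA.
TYMS, chr18:657403-657633, plus strand: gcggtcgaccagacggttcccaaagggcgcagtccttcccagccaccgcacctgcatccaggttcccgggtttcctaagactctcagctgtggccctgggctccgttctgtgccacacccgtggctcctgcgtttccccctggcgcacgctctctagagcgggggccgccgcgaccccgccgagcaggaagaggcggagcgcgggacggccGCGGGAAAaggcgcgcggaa
DUT, the fourth of its listed starts, chr15:48331947-48332102, plus strand: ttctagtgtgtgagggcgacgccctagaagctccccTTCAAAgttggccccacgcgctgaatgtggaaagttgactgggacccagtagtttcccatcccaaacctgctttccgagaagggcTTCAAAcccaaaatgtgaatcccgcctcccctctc
DUT, same start, chr15:48332151-48332180, plus strand: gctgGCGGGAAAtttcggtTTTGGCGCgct
RRM2, the first of its listed starts, chr2:10122610-10122729, plus strand: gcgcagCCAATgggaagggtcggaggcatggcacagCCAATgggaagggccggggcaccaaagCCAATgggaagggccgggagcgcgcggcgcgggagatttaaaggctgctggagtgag
TK1, the second of its listed starts, chr17:78187118-78187132, minus strand: ctgATTGGccccatg
TK1, same start, chr17:78187088-78187102, minus strand: cgtgATTGGccagca

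The TYMS window held 1 E2F word at bases -39 to -32 from the start and neither other motif. The fourth DUT window held 2 E2F words, at -42 to -35 and -27 to -20, and 2 TTTGAA words further out, while the 3 other DUT windows held none of the motifs. The first RRM2 window held 3 CCAAT boxes, at -123, -93 and -66, and the second TK1 window held 2, at -77 and -46. The second RRM2 window held 1 CCAAT, and the first TK1 window held none of the motifs. The window of RRM1 held 1 CCAAT and 1 TTTGAA, that of DTYMK held 2 CCAAT, and that of DCK held none. Over all 35116 promoter windows of the same length, 2.79% held an E2F word, 32% a CCAAT and 13.3% a TTTGAA. A match is a description of the letters, and no binding was measured here.

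All 7 genes were detected in every library, from 134 UMIs (DCK in Control) to 12961 UMIs (DTYMK in Drug_Radiation), and their summed level was 300.1 CPM in Drug_Radiation, 426 CPM in Drug, 279 CPM in Radiation and 378 CPM in Control. Intervals are exact 95% Poisson intervals and cover counting error only. The libraries counted UMIs from one end of each RNA, per the kit named in the labels, so a gene's level is compared between libraries and not with that of another gene.

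**Figure D1:**
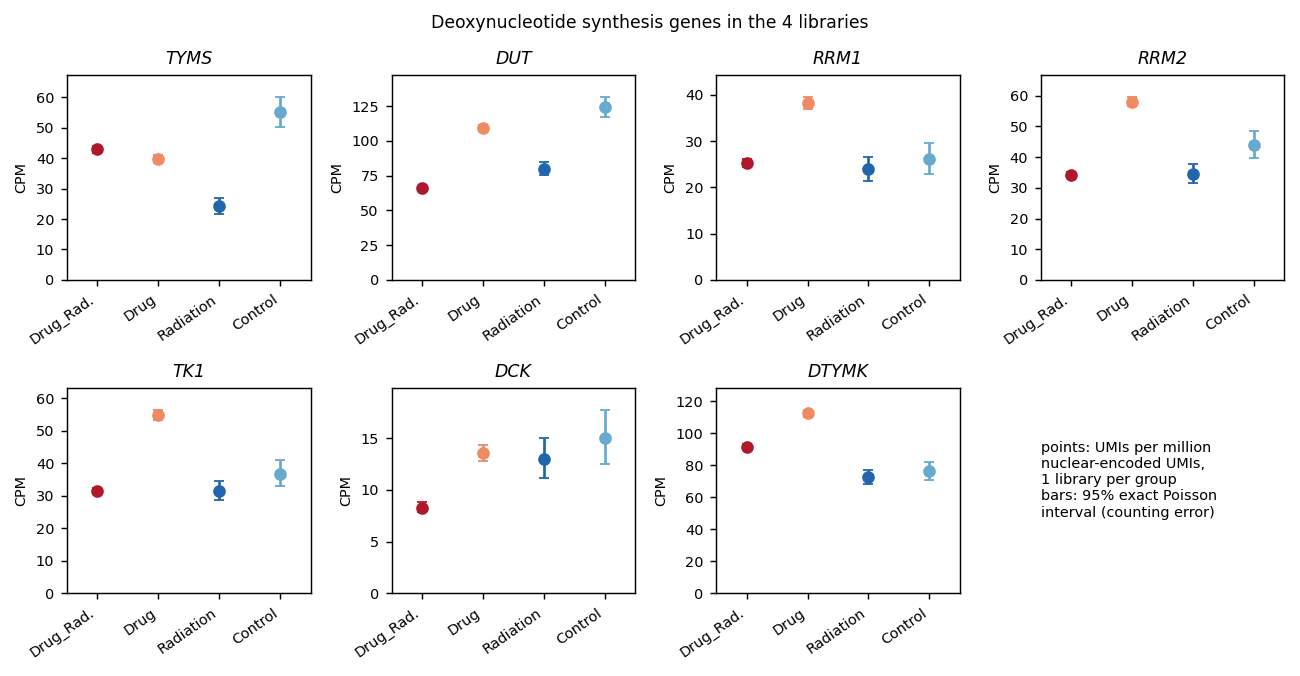
Level of each gene in CPM (UMIs per 1000000 nuclear-encoded UMIs, vertical axes from 0) in Drug_Radiation, Drug, Radiation and Control, 1 library each, with 95% counting intervals. RRM1, RRM2, TK1 and DTYMK were highest in Drug, while TYMS, DUT and DCK were highest in Control, and TYMS was lowest in Radiation at 24.2 CPM.

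Both reductase subunits were highest in Drug. RRM1, the large subunit that holds the active site, had 25.3 CPM (24.5 to 26.1) in Drug_Radiation, 38.3 (37.0 to 39.6) in Drug, 23.9 (21.4 to 26.5) in Radiation and 26.0 (22.8 to 29.6) in Control. RRM2, the small subunit that makes the radical the reaction needs and that is degraded late in the cell cycle, had 34.2 CPM (33.3 to 35.2) in Drug_Radiation, 58.1 (56.5 to 59.7) in Drug, 34.5 (31.6 to 37.7) in Radiation and 43.9 (39.7 to 48.5) in Control. On the CPM scale over all cells, Drug thus stood apart from the other libraries for both subunits. For Drug against Control, however, the median log2 ratio of all genes was 0.50, beside 0.54 for RRM1 and 0.40 for RRM2. Median-of-ratios scaling put RRM2 at -0.02. Among cells of 6500 to 15000 UMIs, RRM2 had 36.0 CPM in Drug, 50.9 in Radiation and 41.1 in Control. For RRM1 neither Control and Drug_Radiation nor Drug_Radiation and Radiation differed beyond their counting error, and for RRM2 Radiation and Drug_Radiation did not.

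The genes of the thymidylate branch did not share one order of libraries. TYMS had 42.9 CPM (41.8 to 44.0) in Drug_Radiation, 39.5 (38.2 to 40.9) in Drug, 24.2 (21.7 to 26.9) in Radiation and 55.1 (50.3 to 60.2) in Control. DUT had 66.4 CPM (65.1 to 67.7) in Drug_Radiation, 109 (107 to 112) in Drug, 80.0 (75.4 to 84.7) in Radiation and 124 (117 to 132) in Control. All neighbours in the order of levels were separated beyond counting error for these 2 genes: Radiation was the low library for TYMS and Drug_Radiation the low one for DUT. DTYMK, the kinase of the next step, had 91.5 CPM (90.0 to 93.1) in Drug_Radiation, 112 (110 to 115) in Drug, 72.5 (68.2 to 77.0) in Radiation and 76.3 (70.7 to 82.3) in Control, so that both QTP libraries were above both others, and Control and Radiation were not separated. This order did not hold among cells of 6500 to 15000 UMIs, where DTYMK had 75.1 CPM in Drug_Radiation, 81.8 in Drug, 81.6 in Radiation and 90.8 in Control. That window held 2533 of 6990 cells in Drug_Radiation, 1023 of 3802 in Drug, 770 of 2425 in Radiation and 173 of 3183 in Control. The median UMIs in it were 11462, 10833, 8566 and 7775, in the same order, so depth was not equal within it.

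The salvage kinases also differed from each other. TK1, the thymidine kinase of cycling cells, had 31.5 CPM (30.6 to 32.4) in Drug_Radiation, 54.8 (53.2 to 56.4) in Drug, 31.4 (28.6 to 34.4) in Radiation and 36.8 (32.9 to 41.0) in Control, the same order as RRM2 apart from the pair of irradiated libraries, which did not differ beyond counting error for either gene. DCK, which phosphorylates deoxycytidine and activates gemcitabine, was the only one of the 7 below 20 CPM in every library, with 8.29 CPM (7.82 to 8.78) in Drug_Radiation, 13.6 (12.8 to 14.4) in Drug, 13.0 (11.2 to 15.0) in Radiation and 15.0 (12.5 to 17.7) in Control. Drug_Radiation was the low library for DCK, and the 3 others followed each other within counting error. Counts and medians below cover the 6 genes that reached 20 CPM, and DCK is given by its own values.

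Differences are log2 ratios of CPM plus 1, with exact conditional intervals that leave out the added 1 CPM. They are read beside the median over all genes that reached 20 CPM in either library, since the whole table was shifted between libraries. That median was 0.18 for Radiation against Control, -0.18 for Drug_Radiation against Drug, 0.50 for Drug against Control, 0.13 for Drug_Radiation against Radiation and 0.33 for Drug_Radiation against Control. TMM scaling moved these medians by -0.09, 0.18, -0.40, -0.14 and -0.23, in the same order. It also changed the count of all genes past 2-fold in Drug against Control from 477 higher and 130 lower to 63 higher and 179 lower. For the other comparisons in that order, the counts of higher and lower genes were 105 and 42, 15 and 7, 60 and 84, and 281 and 127. With TMM they were 73 and 58, 26 and 0, 38 and 93, and 105 and 154.

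Without QTP, irradiated cells held less TYMS and DUT RNA than cells that were not irradiated, and the other 5 genes differed less. The log2 ratio of Radiation against Control was -1.15 (-1.39 to -0.99) for TYMS, the only one of the 6 past 2-fold, where 0.872% of all genes were lower and 2.18% higher by that size. At 1.5-fold TYMS and DUT were lower, 2 of the 6, against 3.45% of all genes, and 0 were higher, against 14.8%. It was -0.63 (-0.76 to -0.52) for DUT, -0.34 (-0.54 to -0.15) for RRM2 and -0.22 (-0.44 to -0.02) for TK1. RRM1, at -0.12 (-0.37 to 0.12), DCK, at -0.19 (-0.53 to 0.12), and DTYMK, at -0.07 (-0.22 to 0.07), did not differ beyond counting error over all cells. Signs turned among cells of 6500 to 15000 UMIs for RRM2 (0.30), TK1 (0.29) and DCK (0.37). In cells thinned to 1000 UMIs they turned for RRM1 (0.17) and DTYMK (0.11). Among cells with no S or G2 and M phase UMI after thinning, they turned for RRM2 (0.16) and DTYMK (0.15). Of all genes, 0.477% had a ratio below that of TYMS and 2.97% one below that of DUT. All 6 lay below the all-gene median, and their median minus that of all genes (the relative median) was -0.46.

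With QTP, the pattern over the genes was another: TYMS was slightly higher after radiation and the 6 others were lower. The log2 ratio of Drug_Radiation against Drug was 0.11 (0.06 to 0.18) for TYMS, which turned to -0.18 among cells of 6500 to 15000 UMIs and to -0.04 in cells thinned to 1000 UMIs. It was -0.78 (-0.86 to -0.74) for TK1, -0.75 (-0.82 to -0.71) for RRM2, -0.71 (-0.76 to -0.68) for DUT, -0.65 (-0.83 to -0.59) for DCK and -0.58 (-0.67 to -0.53) for RRM1. DTYMK had -0.29 (-0.33 to -0.26), closer to the all-gene median. These sizes correspond to 1.72-fold for TK1 and 1.68-fold for RRM2, so 0 of the 6 passed 2-fold, where 0.126% of all genes were lower and 0.269% higher. TK1, RRM2 and DUT nevertheless lay near the low end of the table, with 0.467%, 0.664% and 0.808% of all genes below them, while 89.0% lay below TYMS. At 1.5-fold these 3 of the 6 were lower, against 2.39% of all genes, and 0 were higher, against 0.844%.

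**Figure D2:**
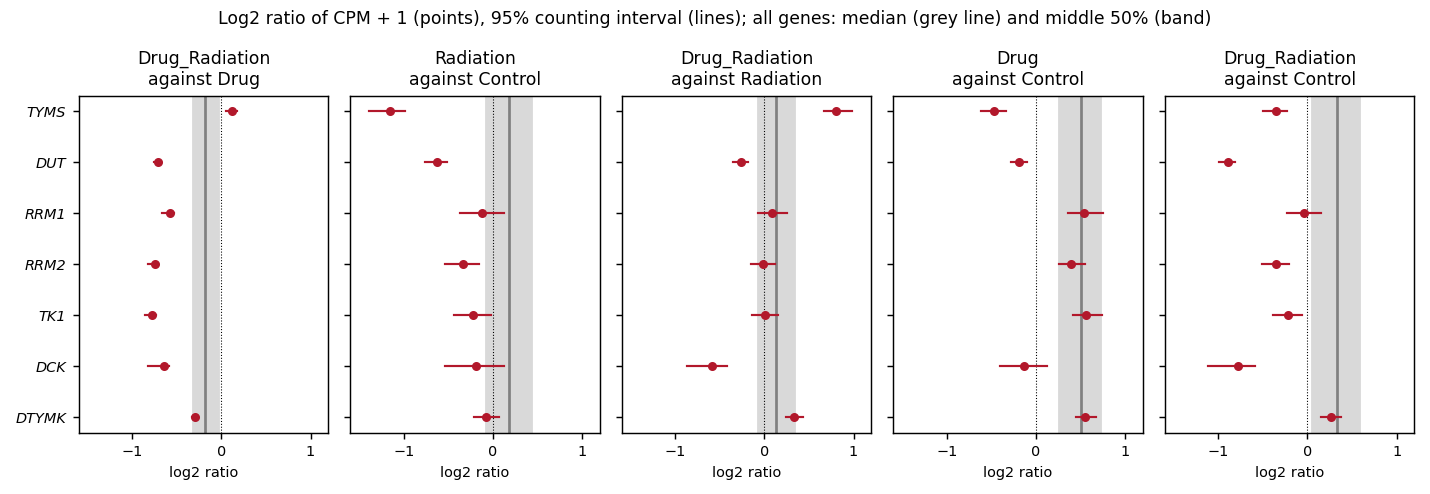
Log2 ratios of the 7 genes (points, horizontal axes) with 95% counting intervals in the 5 comparisons, beside the median of all genes (grey line) and their middle 50% (band). TYMS is the point furthest left in Radiation against Control (-1.15) and the only point right of 0 in Drug_Radiation against Drug (0.11).

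The radiation comparisons share no library, so their ratios can be set against each other. The ratio with QTP minus that without was 1.27 (1.10 to 1.51) for TYMS, the only one of the 6 past 2-fold in either direction, where 1.22% of all genes were higher with QTP and 5.15% lower. On the CPM scale over all cells every other gene had a negative difference: -0.56 (-0.78 to -0.36) for TK1, -0.46 (-0.72 to -0.22) for RRM1, -0.46 (-0.84 to -0.16) for DCK, -0.41 (-0.62 to -0.22) for RRM2 and -0.22 (-0.37 to -0.08) for DTYMK. For DUT the difference was -0.08 (-0.21 to 0.04), within counting error on that scale. Among cells of 6500 to 15000 UMIs it was -0.50. TMM scaling and median-of-ratios scaling turned the DUT difference to 0.18 and 0.14, and TMM turned that of DTYMK to 0.04. The sign also turned for DTYMK among cells of 6500 to 15000 UMIs (0.03) and for DCK in thinned cells (0.09). Among cells with no S or G2 and M phase UMI after thinning, it turned for RRM1 (0.07) and DCK (0.22). The difference of TYMS lay between 0.75 and 1.87 over the 11 other settings tried. These intervals cover counting error only, and the difference was not tested.

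The genes that overlap TYMS did not share its pattern. ENOSF1, an enzyme gene transcribed toward TYMS, had 17.4 CPM in Drug_Radiation, 25.2 in Drug, 17.5 in Radiation and 14.9 in Control, with log2 ratios of -0.51 (-0.61 to -0.45) for radiation with QTP and 0.22 (-0.07 to 0.55) without. TYMSOS had 18.8 CPM in Drug_Radiation, 20.4 in Drug, 14.9 in Radiation and 15.1 in Control, with -0.11 for radiation with QTP and -0.02 without.

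Against Control, the Drug library held more RNA of RRM1, RRM2, TK1 and DTYMK and less of TYMS and DUT, on the CPM scale. The log2 ratio of Drug against Control was 0.54 (0.36 to 0.75) for RRM1, 0.40 (0.26 to 0.56) for RRM2, 0.56 (0.41 to 0.74) for TK1 and 0.55 (0.45 to 0.67) for DTYMK. Relative to the all-gene median of 0.50 these are 0.04, -0.10, 0.06 and 0.05, and median-of-ratios scaling put RRM2 at -0.02. Among cells of 6500 to 15000 UMIs, 3 of the 4 turned sign, with -0.19 for RRM2, -0.15 for TK1 and -0.15 for DTYMK, and RRM1 had 0.16. That window took the deeper Control cells (173 of 3183) and the shallower Drug cells (1023 of 3802), so its ratios are not matched for depth. TYMS had -0.47 (-0.62 to -0.34) and DUT -0.18 (-0.28 to -0.10), which is -0.97 and -0.68 relative to all genes, and DCK had -0.13 (-0.40 to 0.13). None of the 6 passed 2-fold, where 8.6% of all genes were higher and 2.34% lower, nor 1.5-fold, where the shares were 40.1% and 3.21%.

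Among irradiated cells, those with QTP held more TYMS RNA than those without. The log2 ratio of Drug_Radiation against Radiation was 0.80 (0.67 to 0.98) for TYMS, with 97.2% of all genes below it. It was 0.33 (0.25 to 0.43) for DTYMK, -0.26 (-0.36 to -0.18) for DUT and -0.59 (-0.87 to -0.42) for DCK. RRM1 at 0.08 (-0.08 to 0.25), RRM2 at -0.01 (-0.15 to 0.12) and TK1 at 0.00 (-0.14 to 0.15) did not differ beyond counting error, and TMM scaling put RRM1 at -0.05 and TK1 at -0.13. Among cells of 6500 to 15000 UMIs the ratios were lower, at -1.31 for RRM2, past 2-fold there, -0.98 for TK1, -0.36 for RRM1 and -0.12 for DTYMK, while TYMS stayed higher at 0.50. That window took the deeper Radiation cells (770 of 2425) and the shallower Drug_Radiation cells (2533 of 6990), so these ratios are not matched for depth. Over all cells none of the 6 passed 2-fold, where 1.15% of all genes were higher and 1.6% lower. At 1.5-fold TYMS alone was higher, 1 of the 6 against 8.09% of all genes, and 0 were lower, against 2.29%.

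The combination against Control, which shares its libraries with the comparisons above, left DUT lowest of the 6. The log2 ratio of Drug_Radiation against Control was -0.90 (-1.0 to -0.81) for DUT, -0.35 (-0.49 to -0.23) for TYMS, -0.35 (-0.51 to -0.21) for RRM2 and -0.22 (-0.38 to -0.06) for TK1. DCK had -0.78 (-1.11 to -0.58), RRM1 -0.04 (-0.23 to 0.16) and DTYMK 0.26 (0.15 to 0.38), the last turning to -0.01 with median-of-ratios scaling and to -0.27 among cells of 6500 to 15000 UMIs, where RRM2 at -1.01 was below DUT at -0.93. The 6500 to 15000 window took the deeper Control cells and the shallower Drug_Radiation cells, so its ratios are not matched for depth. Among cells with no S or G2 and M phase UMI after thinning, signs turned for TYMS (0.17), RRM1 (0.31), RRM2 (0.54) and TK1 (0.41). All 6 lay below the all-gene median, with a relative median of -0.61. Over all cells none passed 2-fold, where 5.36% of all genes were higher and 2.42% lower, and DUT passed it under TMM and median-of-ratios scaling. At 1.5-fold DUT was lower, 1 of the 6 against 3.6% of all genes, and 0 were higher, against 25.7%.

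Because these genes are tied to DNA replication, their levels were also read by the S phase content of each cell. Cells were thinned to 1000 UMIs and grouped by their number of UMIs from 45 other S phase genes (replication helicase, polymerase and fork genes, none of the 7), and levels were then taken from all UMIs of the group. Cells with 4 or more such UMIs made up 4.13% of Drug_Radiation, 8.26% of Drug, 5.57% of Radiation and 6.06% of Control, and cells with 0 made up 41.4%, 35.5%, 40.1% and 42.2%, in the same order. The cells with 4 or more were also deeper, with median UMIs of 22029 in Drug_Radiation, 27143.5 in Drug, 6455 in Radiation and 2919 in Control, against 16981, 19086, 5006 and 2148.5 in the cells with 0. The part of this depth difference in the gradients below was not tested.

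Every gene was higher in S phase-rich cells of every library, and RRM2 and TK1 had the steepest gradients. RRM2 had 184 CPM in the cells with 4 or more S phase UMIs against 12.6 in those with 0 in Drug_Radiation, 245 against 13.6 in Drug, 188 against 9.09 in Radiation and 196 against 12.1 in Control. These are folds of 14.6 (13.3 to 16.0), 18 (16.2 to 20.1), 20.7 (15.1 to 29) and 16.2 (11.4 to 23.5). TK1 had folds of 9.50 in Drug_Radiation, 9.41 in Drug, 16.4 in Radiation and 9.90 in Control. The reductase subunits thus differed, since RRM1 had folds of only 3.81, 4.55, 5.55 and 4.00 in the same libraries, and the intervals of RRM1 and RRM2 did not overlap in any of them.

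The other 4 genes had lower folds than RRM2 and TK1 in every library. TYMS had folds of 3.32 in Drug_Radiation, 4.70 in Drug, 5.41 in Radiation and 4.04 in Control. DUT had 2.77, 3.28, 3.86 and 3.35, DCK 3.11, 2.91, 4.19 and 3.53, and DTYMK 2.23, 3.02, 3.39 and 2.69, in the same order. In cells with no S phase UMI after thinning, TYMS had 31.5 CPM in Drug_Radiation, 20.5 in Drug, 12.7 in Radiation and 29 in Control. With groups by unthinned share, the lowest group had 21.9 CPM of TYMS in Drug_Radiation, 9.24 in Drug, 8.46 in Radiation and 20.7 in Control. Cells without an S phase UMI after thinning can hold such UMIs in their full count, so the TYMS level outside S phase was not tested. The concentration can also be read from the share of a gene's UMIs that came from the cells with 4 or more S phase UMIs, which held 4.50% of all UMIs in Drug_Radiation, 10.0% in Drug, 6.48% in Radiation and 7.06% in Control. For RRM2 that share was 24.2% in Drug_Radiation, 42.3% in Drug, 35.4% in Radiation and 31.6% in Control, and for TYMS it was 11%, 24.4%, 18.4% and 15.0%.

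**Figure D3:**
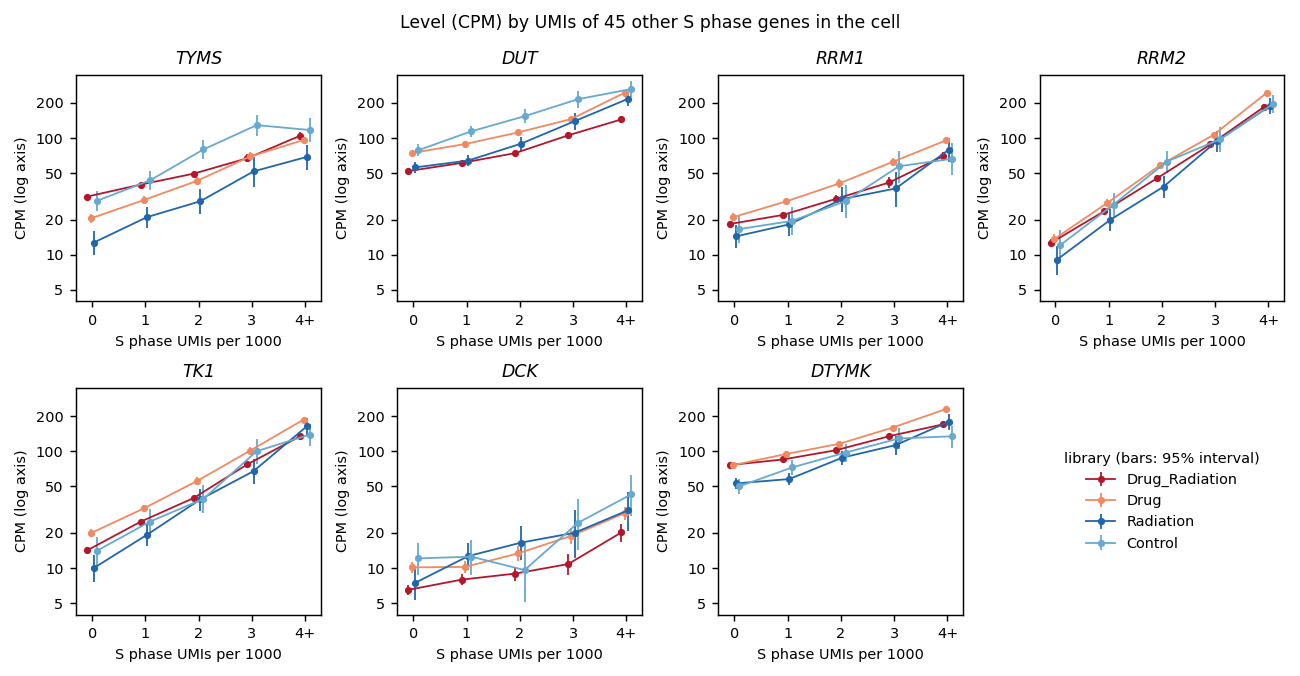
Level of each gene in CPM (log axis) by the number of UMIs from 45 other S phase genes per 1000 UMIs of the cell, in 4 libraries, with 95% counting intervals. RRM2 runs from 9.09 to 13.6 CPM at 0 to between 184 and 245 CPM at 4 or more, while DTYMK runs from 50.1 to 76.3 CPM at 0 to between 135 and 230 CPM at 4 or more.

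Grouping the cells by 46 G2 and M phase genes gave gradients of similar size. RRM2 was higher in cells with 3 or more such UMIs than in cells with 0 by 15.8-fold in Drug_Radiation, 18.4-fold in Drug, 26.7-fold in Radiation and 11.4-fold in Control. TK1 was higher by 10.5, 10.6, 12.5 and 11.2-fold and TYMS by 3.67, 4.69, 5.35 and 4.94-fold, in the same libraries. In Drug_Radiation the cells with 3 or more G2 and M phase UMIs held 48.1% of the RRM2 UMIs and 9.09% of all UMIs. Both groupings thus placed RRM2 and TK1 above TYMS in steepness in every library.

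Within groups of equal S phase UMI count after thinning, the radiation ratios of most genes kept their sign with QTP. The 45 grouping genes themselves had a relative median of -0.25 in Drug_Radiation against Drug, so an equal count need not mean an equal phase. Drug_Radiation against Drug was below 0 in 5 of 5 groups for DUT (-0.75 to -0.46), RRM1 (-0.57 to -0.18), TK1 (-0.47 to -0.37) and DCK (-0.75 to -0.32), with every interval below 0. It was below 0 in 5 of 5 for RRM2 (-0.41 to -0.10, 4 of the intervals below 0) and in 4 of 5 for DTYMK (-0.43 to 0.00). Over all cells the all-gene median of this comparison was -0.18, and none is given for the groups. The highest ratios of RRM1, RRM2 and DTYMK were near or above that median, so a sign below 0 does not set them apart from all genes. Among cells with neither S nor G2 and M phase UMIs after thinning, RRM2 turned to 0.06 and DTYMK to 0.02. For RRM2 and TK1 the ratios within groups were smaller in size than the -0.75 and -0.78 over all cells. The share of S phase-rich cells was 4.13% in Drug_Radiation and 8.26% in Drug, and its part in these ratios was not tested. TYMS had 0.60, 0.43, 0.20, -0.05 and 0.12 from the group with 0 to the group with 4 or more, so that its higher level in Drug_Radiation was seen in the groups with the fewest S phase UMIs.

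Without QTP, TYMS and DUT were lower after radiation in every group of S phase UMI count, and the other genes were not separated from Control in most groups. Radiation against Control was below 0 in 5 of 5 groups for TYMS (-1.44 to -0.76, every interval below 0) and for DUT (-0.82 to -0.28, 4 of the intervals below 0). RRM2 was below 0 in 5 of 5 but beyond counting error in 1 group, and TK1 in 4 of 5 with 1. RRM1, DCK and DTYMK had both signs, with 3 of 5 groups below 0. In Drug_Radiation against Radiation, TYMS was above 0 in 5 of 5 groups (0.37 to 1.25), in 4 of them beyond counting error.

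**Figure D4:**
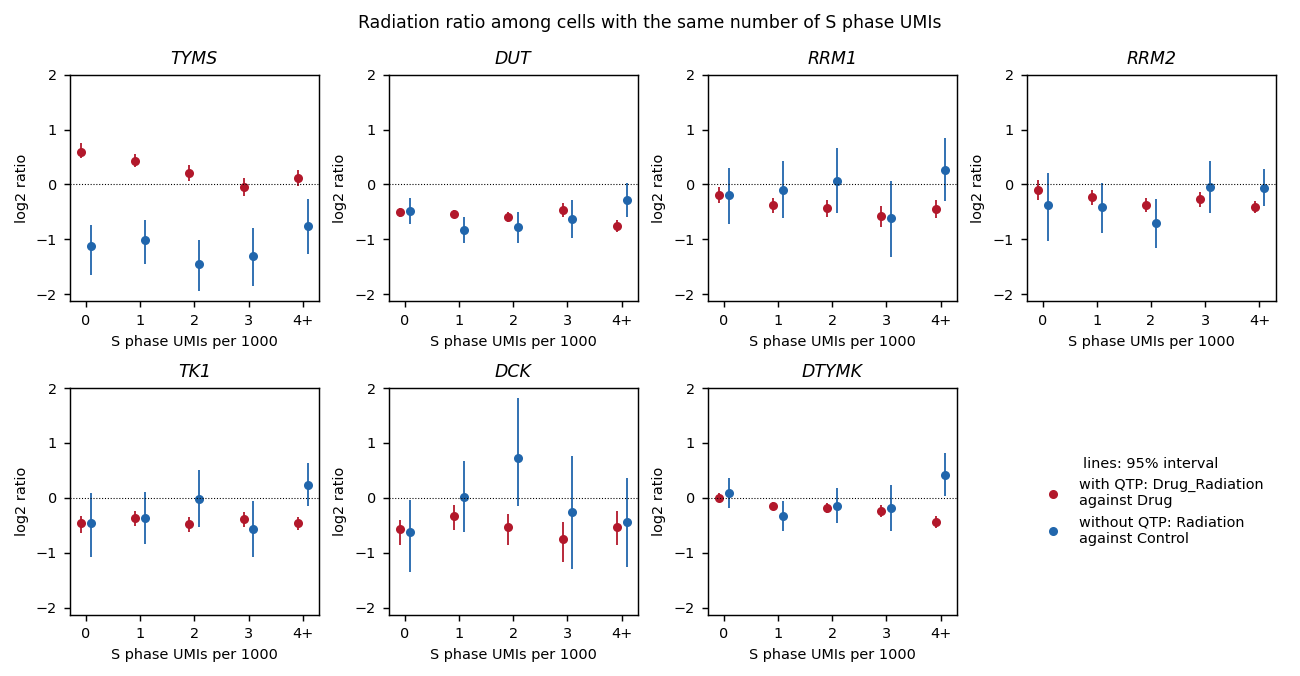
Log2 ratio for radiation (vertical axes) with QTP (Drug_Radiation against Drug) and without QTP (Radiation against Control) among cells with the same number of S phase UMIs per 1000 (horizontal axes), with 95% counting intervals. The TYMS points without QTP lie between -1.44 and -0.76, below all TYMS points with QTP (-0.05 to 0.60).

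The libraries differ in depth, so the radiation ratios were also taken within classes of UMIs per cell, a split made after the values were seen. With QTP the 6 genes other than TYMS were lower in Drug_Radiation than in Drug in all 3 classes (6500 to 15000, over 15000 to 30000, and over 30000 UMIs). RRM2 had -0.82, -0.36 and -0.95 in these classes, DUT -0.77, -0.61 and -0.76, and DTYMK -0.12, -0.18 and -0.37. The all-gene median at 6500 to 15000 UMIs was -0.15, and DTYMK lay above it there. DCK at 6500 to 15000 UMIs, with -0.30 (-0.71 to 0.04), was within counting error. TYMS had -0.18 (-0.35 to -0.02), 0.31 (0.22 to 0.42) and 0.04 (-0.05 to 0.13), from 38.9, 43.5 and 44.2 CPM in Drug_Radiation and 44.3, 34.8 and 43.0 CPM in Drug. The sign of the TYMS ratio with QTP thus differed between depth classes.

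Without QTP, TYMS was lower in Radiation than in Control in both depth classes that held enough cells. Its log2 ratio was -1.29 (-1.61 to -1.05) among cells under 6500 UMIs (1603 in Radiation and 3008 in Control) and -0.93 (-1.35 to -0.54) among cells of 6500 to 15000 UMIs (770 and 173). DUT had -0.87 (-1.04 to -0.72) and -0.27 (-0.53 to -0.01). RRM2, TK1 and DCK changed sign between the classes, with -1.11 (-1.44 to -0.85) and 0.30 (-0.10 to 0.74) for RRM2 and -0.73 (-1.05 to -0.46) and 0.29 (-0.16 to 0.79) for TK1. DCK had -0.52 (-1.01 to -0.13) and 0.37 (-0.36 to 1.26). DTYMK had -0.26 (-0.45 to -0.07) and -0.15 (-0.44 to 0.14), lower beyond counting error under 6500 UMIs only. At 6500 to 15000 UMIs only TYMS and DUT were lower in Radiation beyond counting error.

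Shares of cells with a UMI were read at an equal 1000 UMIs per cell, which left out 0 cells. TYMS was detected in 3.68% (3.25 to 4.14) of Drug_Radiation cells, 3.76% (3.18 to 4.42) of Drug cells, 1.57% (1.11 to 2.14) of Radiation cells and 4.18% (3.51 to 4.93) of Control cells, with exact Clopper-Pearson intervals. DUT was detected in 5.46% of Drug_Radiation cells, 9.26% of Drug cells, 6.68% of Radiation cells and 10.5% of Control cells. RRM2 was detected in 2.69%, 4.31%, 3.01% and 3.39% and TK1 in 2.15%, 4.39%, 2.10% and 2.54%, in the same order. The share of TYMS-positive cells was thus low in Radiation alone, as its CPM was. No cell type that lacks these genes was present to measure free RNA, so the background of these shares is unknown. DCK was rarest, in 0.601%, 0.815%, 1.03% and 1.51%, and none of the 7 genes was detected in 79.8% of Drug_Radiation cells, 73.0% of Drug cells, 80.9% of Radiation cells and 75.6% of Control cells.

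Without thinning the same shares were higher in both QTP libraries, the deeper ones, than in Radiation and Control. Within each of these pairs the TYMS shares did not follow the median UMIs per cell. TYMS was then detected in 44.5% of Drug_Radiation cells, 41.3% of Drug cells, 11.4% of Radiation cells and 12.3% of Control cells, and RRM2 in 21.0%, 28.8%, 10.2% and 8.64%. Cells with an RRM2 UMI held on average 3.30 of them in Drug_Radiation, 4.62 in Drug, 2.0 in Radiation and 1.43 in Control, and the highest cell held 26, 33, 7 and 5. In Drug, DTYMK was seen in 74.6% of cells at a mean of 3.45 UMIs and RRM2 in 28.8% of cells at a mean of 4.62, so RRM2 was found in fewer cells with more UMIs in each.

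The lists of other nucleotide-supply genes did not lie as far from the all-gene median after radiation as the 6 genes did. For Drug_Radiation against Drug, where the 6 had a relative median of -0.46, it was -0.00 for deoxynucleotide salvage and breakdown (13 of 19 genes measured), 0.11 for nucleoside mono- and diphosphate kinases (13 of 16), -0.07 for the folate cycle (13 of 18), -0.04 for pyrimidine synthesis (4 of 5) and -0.13 for purine synthesis (13 of 15). For Radiation against Control, where the 6 also had -0.46, the same lists had -0.03, -0.09, -0.17, 0.33 and 0.07. Of the cell cycle lists, 45 S phase genes had -0.25 with QTP and -0.06 without (19 and 18 measured), and 46 G2 and M phase genes had -0.58 and -0.71 (18 and 15 measured). None of the G2 and M phase genes measured lay above the all-gene median in either radiation comparison, and the 6 genes, at -0.46 in both, lay between the 2 cell cycle lists.

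In Radiation against Control and Drug_Radiation against Drug, no gene of the 5 nucleotide-supply lists passed 2-fold. The extremes there were SLC29A1, a nucleoside transporter, at 0.62 without QTP, NUDT1, which clears oxidised nucleotides, at -0.58 with QTP and -0.41 without, and NME4, a mitochondrial diphosphate kinase, at -0.68 without QTP. GGH, a folate hydrolase, had -0.68 with QTP, MTHFD1L, a mitochondrial folate enzyme, had -0.43 without, and SHMT2, the mitochondrial serine hydroxymethyltransferase, had 0.85 without. IMPDH1, which commits purines to guanine nucleotides, had 0.89 without QTP and HPRT1, the purine salvage enzyme, had -0.51 with QTP. DHODH, an enzyme of pyrimidine synthesis in mitochondria, had 0.68 without QTP and -0.28 with it. Within the kinase list AK6 had -0.51 with QTP and UCKL1 0.52 without.

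On the CPM scale RRM2B, the p53-induced alternative small subunit of the reductase, was higher after radiation in both arms, unlike RRM2. It had 46.0 CPM in Drug_Radiation, 35.8 in Drug, 38.2 in Radiation and 31.2 in Control. Its log2 ratios were 0.35 (0.30 to 0.42) with QTP and 0.29 (0.08 to 0.51) without, beside all-gene medians of -0.18 and 0.18. The ratio without QTP lay below the upper quartile of all genes (0.44), so it did not set RRM2B apart from them. CDKN1A, the p53-induced cell cycle inhibitor, had 0.41 and 1.19 for the same comparisons, and in Radiation against Control it was the only gene of the E2F and RB list (5 of 18 measured) past 2-fold. That list had a relative median of 0.30 with QTP, where MDM2, the p53 ligase, was its highest gene at 0.54, and 0.05 without. SAMHD1, which degrades deoxynucleotides, and E2F1, a transcription factor of S phase genes, were far below 20 CPM in every library. They had 1.76 and 2.30 CPM in Drug_Radiation, 2.44 and 2.56 in Drug, 1.19 and 2.02 in Radiation and 2.91 and 2.01 in Control.

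**Figure D5:**
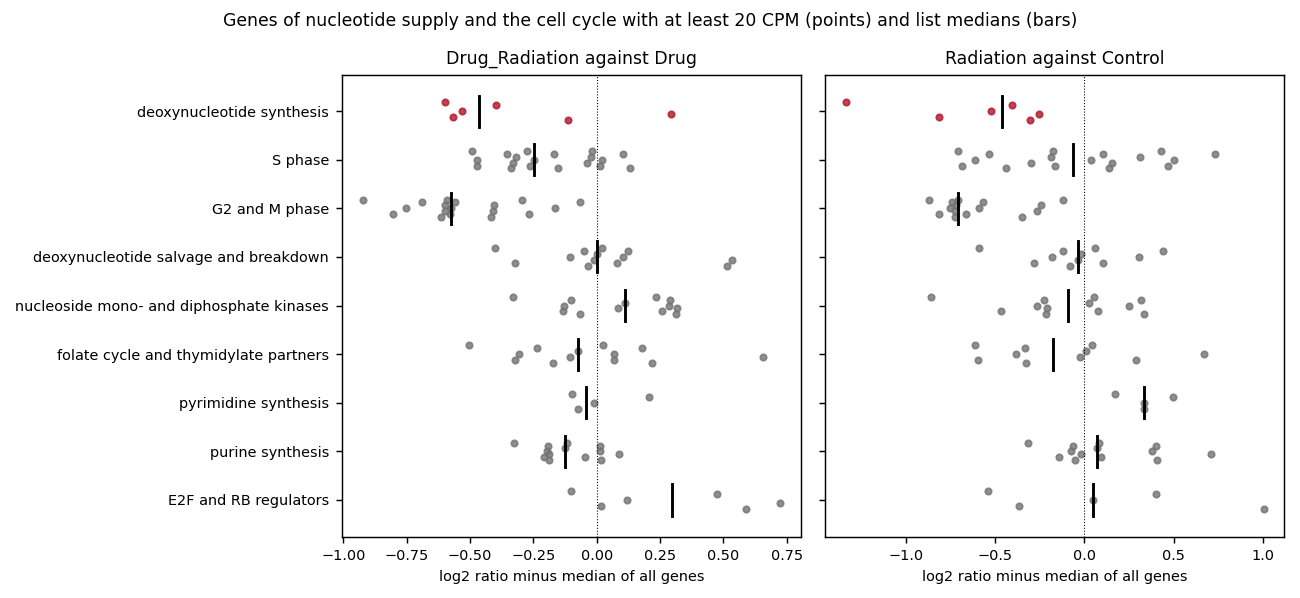
Log2 ratio minus the median of all genes (horizontal axes) for genes with at least 20 CPM in Drug_Radiation against Drug and in Radiation against Control, by list, with list medians as bars. The deoxynucleotide synthesis genes (top row) have medians of -0.46 in both panels, and the salvage, kinase, folate and purine lists lie between -0.17 and 0.11.

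In the QTP comparisons supply genes past 2-fold included SHMT2, PRPS1 and IMPDH1. Of all genes, 8.6% were higher and 2.34% lower by that size in Drug against Control, and 5.36% and 2.42% in Drug_Radiation against Control. The all-gene median of Drug against Control was 0.50, and TMM scaling moved it by -0.40 and cut the higher genes from 477 to 63. The calls on the CPM scale below thus depend on scaling. SHMT2 had 348 CPM in Drug_Radiation, 387 in Drug, 346 in Radiation and 191 in Control, with a log2 ratio for Drug against Control of 1.02. Of the purine genes, PRPS1, which makes the ribose donor, and IMPDH1 had 1.26 and 1.21 for Drug against Control and 1.09 and 1.04 for Drug_Radiation against Control. All 4 pyrimidine genes measured lay above the all-gene median in Drug against Control, with a relative median of 0.37. Of the S phase genes, MCM3 and MCM7, subunits of the replication helicase, had 1.25 and 1.13 for Drug against Control, while POLE2, a subunit of DNA polymerase epsilon, had -2.09. POLE2 was also lower in Drug_Radiation than in Radiation, at 10.8 CPM against 48.3 CPM.

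Patterns over the 4 libraries were compared by the root mean square distance between centred log2 levels, among 3986 genes with at least 20 CPM in every library. Within the 7 genes RRM2 and TK1 were closest at 0.063, followed by RRM1 and TK1 at 0.080, and TYMS was the most distant, from 0.397 to DUT to 0.507 to DCK. Of genes outside the group, those nearest to TYMS were PRELID1 (0.091), C1QBP and STUB1 (both 0.149), and PRELID1 had 74.9 CPM in Drug_Radiation, 68.2 in Drug, 48.3 in Radiation and 108 in Control. Nearest to DUT were TOP2A (0.034), the topoisomerase of dividing cells, CKS2 (0.053) and C4BPB (0.057). RRM1 was nearest to RNASEH2A and SNRPA1 (both 0.027) and ARL6IP1 (0.033), and RRM2 to EXOSC8 (0.030), ITGB3BP (0.032) and PEG10 (0.059). TK1 was nearest to PEG10 (0.029), GGH (0.042) and NMI (0.052), DCK to SMIM19 (0.068), THSD4-AS1 (0.083) and PAK1IP1 (0.083), and DTYMK to DNM1L (0.0071), FKBP4 (0.011) and RHEB (0.014). A distance over 4 libraries describes these libraries only.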

How the data were processed

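The files deposited by the authors hold raw counts of UMIs for each gene and barcode of the 4 libraries. Seurat 4.3.3 and the build hg38 are named, without a role, in the submitters' processing notes. The sources used here do not give the aligner, counter, strand or barcode calling. The labels name a PIPseq kit but also another platform, so the platform is not settled. The lowest barcode held 6244 UMIs in Drug_Radiation, 6427 in Drug, 1592 in Radiation and 1009 in Control, so barcodes had been filtered before. Cells with at least 500 UMIs, 300 genes and under 20% mitochondrial UMIs were kept, and no doublets were called or removed. UMIs were summed per library and scaled to the total without the 13 mitochondrial genes (CPM), and ratios were taken on a log2 scale after adding 1 CPM. The 95% intervals are Poisson (levels), conditional binomial (ratios), Clopper-Pearson (shares) and, for the difference of ratios, normal on the log scale. All cover counting error only. A size of 2-fold was counted among genes with at least 20 CPM. The methods were tested on simulated data. The genes named were the 7, those past 2-fold and the extremes of the lists, a few genes always named and the 3 nearest in pattern per gene, apart from 1 item that is not reported here. The members and lists were chosen with earlier results of these data known. Alternatives were other cell filters, depths, scalings, weights, pseudocounts and sizes. Python 3.11.15, NumPy 2.4.6, SciPy 1.17.1, pandas 2.3.3, matplotlib 3.10.9, R 4.3.3, edgeR 4.0.16 and DESeq2 1.42.0 (the last 2 for scaling only) were used.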

Additional observations from a re-analysis of the deposited data

Results flagged for a closer look

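Over all cells, the log2 ratios of TYMS for radiation and for QTP had opposite signs in the arms of the crossed design. Its log2 ratio for radiation was 0.11 with QTP (Drug_Radiation against Drug) and -1.15 without QTP (Radiation against Control). The ratio with QTP turned to -0.18 among cells of 6500 to 15000 UMIs and to -0.04 in thinned cells, so the opposite signs for radiation did not hold there. Its log2 ratio for QTP was 0.80 with radiation (Drug_Radiation against Radiation) and -0.47 without radiation (Drug against Control). Each arm holds 1 library per group and the difference was not tested. The same 4 values give both contrasts, so they are 1 observation.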

How the results depend on the processing

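The median of the 6 genes relative to all genes moved in these settings. Among cells of 6500 to 15000 UMIs it was -0.21 for Radiation against Control, -0.40 for Drug against Control and -0.52 for Drug_Radiation against Radiation. Among cells with no S or G2 and M phase UMI, where only TYMS, DUT and DTYMK reached 20 CPM, it was 0.19 for Drug_Radiation against Drug, -0.66 for Drug against Control, 0.55 for Drug_Radiation against Radiation and -0.18 for Drug_Radiation against Control. A floor of 1 CPM, which lets in DCK, gave -0.52 for Drug_Radiation against Drug. Counts past 2-fold were 1 lower in Radiation against Control, 0 at 6500 to 15000 UMIs, and 2 at a size of 1.5-fold. In Drug_Radiation against Drug 0 were lower, 1 in thinned cells and 3 at 1.5-fold. In Drug_Radiation against Radiation 0 were higher, but 1 in thinned cells, in cells with no S or G2 and M phase UMI and at 1.5-fold, and 1 (RRM2) was lower at 6500 to 15000 UMIs. In Drug_Radiation against Control 0 were lower, but 1 at 6500 to 15000 UMIs (RRM2), and 1 (DUT) with TMM, with median-of-ratios scaling and at 1.5-fold. The median share of cells with a UMI was 4.98% in Drug_Radiation, 7.52% in Drug, 4.39% in Radiation and 7.34% in Control at 2000 UMIs, and 32.9%, 41.3%, 11.4% and 8.64% without thinning. The median log2 gradient over S phase groups was 1.49 in Drug_Radiation at 2000 UMIs, and 2.71 in Drug_Radiation, 3.10 in Drug and 3.27 in Radiation with groups by unthinned share. Beyond the settings whose own construction changes the cells, genes or size counted, the cause was not tested.

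Of 35 ratios, all 35 stayed within counting error of their value with all deposited barcodes, the stricter filter, equal weight per cell and the total with mitochondrial genes, while 27 moved at 6500 to 15000 UMIs and 22 with TMM. TYMS for Drug_Radiation against Drug was -0.18 at 6500 to 15000 UMIs and -0.04 in thinned cells. The difference of radiation ratios was put through these settings after the data were seen. Counts with named copies could not be run, since 0 of the features carry such a name. No paired analysis was possible because each group has 1 library. Depth limits Control most, with 134 UMIs of DCK and 233 of RRM1.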
